A study of Mus musculus with 73 samples.

Results

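The antioxidant enzymes described here were 10 genes chosen by name, Gpx1, Gpx4, Prdx1, Prdx5, Prdx6, Sod1, Sod2, Cat, Txn1 and Txnrd1, and all 10 were found among the 23994 mouse gene rows of the deposited table. They were measured in 73 single cells that form 1 group, sorted as macrophages from the remaining right lobes of the lung of 1 B6 mouse at 10 weeks of age, 7 days after the left lobe had been removed. The mouse carried a Csf1r-GFP transgene, in which the promoter of the macrophage growth factor receptor Csf1r drives green fluorescent protein, and the sort took cells positive for CD45, for the reporter and for F4/80, with Ly6G named without a sign. Each cell was captured on a microfluidic chip and its polyadenylated RNA was amplified before sequencing. No cells of an unoperated lung were analysed here, so the values describe cells of a growing lung and no change after surgery, and, since all cells share 1 mouse, no p-value is given.

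Macrophages make superoxide with the NADPH oxidase when they take up particles, and the air-facing cells of the lung also meet high oxygen. Superoxide dismutases turn superoxide into hydrogen peroxide, and catalase, glutathione peroxidases and peroxiredoxins then remove the peroxide. Glutathione and thioredoxin supply the electrons for the peroxidases, and thioredoxin reductase recharges thioredoxin with NADPH. Gpx1, Gpx4 and Txnrd1 encode selenoproteins, and the transcription factor NRF2, bound at antioxidant response elements, is known to raise Prdx1, Txn1 and Txnrd1 in mouse cells.

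Promoter sequences are shown for the pair of members that were higher by the most in the alveolar-macrophage-like cells described below, Prdx1 and Txn1, and for the pair that was lower there, Sod1 and Prdx5. Each is the 250 bases before the annotated start in RefSeq, build GRCm38.p6, written 5′ to 3′ on the gene's own strand, with capitals marking a match to the core of the antioxidant response element.
Prdx1, chr4:116685349-116685598, plus strand: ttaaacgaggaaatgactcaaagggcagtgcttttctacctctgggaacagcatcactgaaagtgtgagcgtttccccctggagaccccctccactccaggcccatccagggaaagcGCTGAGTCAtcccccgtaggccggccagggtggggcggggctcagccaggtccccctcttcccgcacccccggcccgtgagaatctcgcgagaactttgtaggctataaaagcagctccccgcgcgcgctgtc
Txn1, chr4:57956412-57956661, minus strand: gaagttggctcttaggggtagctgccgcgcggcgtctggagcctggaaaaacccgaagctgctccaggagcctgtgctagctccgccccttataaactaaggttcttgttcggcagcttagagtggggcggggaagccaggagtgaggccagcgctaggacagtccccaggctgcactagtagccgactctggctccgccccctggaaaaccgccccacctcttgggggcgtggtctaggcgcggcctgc
Sod1, chr16:90220512-90220761, plus strand: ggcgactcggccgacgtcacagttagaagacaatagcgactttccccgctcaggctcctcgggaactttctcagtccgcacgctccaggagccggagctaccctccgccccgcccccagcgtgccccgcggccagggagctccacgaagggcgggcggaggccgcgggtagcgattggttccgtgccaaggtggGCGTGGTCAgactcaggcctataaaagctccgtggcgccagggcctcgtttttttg
Prdx5, chr19:6910107-6910356, minus strand: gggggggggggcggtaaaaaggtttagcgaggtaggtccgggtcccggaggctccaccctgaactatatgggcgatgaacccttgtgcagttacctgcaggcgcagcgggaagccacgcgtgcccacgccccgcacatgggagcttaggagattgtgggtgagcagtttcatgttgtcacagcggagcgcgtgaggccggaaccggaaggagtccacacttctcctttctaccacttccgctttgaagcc

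The motif searched was TGACNNNGC on either strand, which reads GCNNNGTCA on the other. It was found once in the Prdx1 window, as GCTGAGTCA starting 133 bases before the start, where it overlaps TGAGTCA, the site known for AP-1 factors. The Sod1 window held GCGTGGTCA starting 56 bases before the start, and no match to these letters lay in the Txn1 and Prdx5 windows. Of the 9 members with a promoter entry, 3 held the motif in at least 1 window, and the last of them was Txnrd1, with GCTTTGTCA in 1 of its 3 windows, 92 bases before that start. Among all genes with an entry, 11.5% of 27025 held it, so a match in these letters is common and is given as a description only. Prdx6 had no entry.

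In GRCm38.p6, Gpx1 lies on chromosome 9 from 108339080 to 108340342, Sod1 on chromosome 16 from 90220762 to 90226333, and Prdx1 on chromosome 4 from 116685599 to 116700000. Prdx5 lies on chromosome 19 from 6906697 to 6910106, Txn1 on chromosome 4 from 57943373 to 57956411, and Gpx4 on chromosome 10 from 80047166 to 80056439. Txnrd1 lies on chromosome 10 from 82833951 to 82897724, Sod2 on chromosome 17 from 13007839 to 13018119, Prdx6 on chromosome 1 from 161240112 to 161251210 and Cat on chromosome 2 from 103453904 to 103485153. All are annotated as protein-coding. Exons of Prdx5 overlap those of Trmt112 on the opposite strand, so reads from the overlap cannot be told apart without strand. The length of the overlap was not measured. RefSeq also lists 5 pseudogenes derived from Gpx4, Prdx1, Prdx6 and Txn1, none with a row of its own in the table, and no source used here says how reads shared with them were counted.

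The cells held an estimated 902480 to 4305136 fragments each, of which 458423 to 3486048 came from mouse genes (median 1408858) and 14.2% to 70.9% from a spike-in RNA. Between 1044 and 3745 genes were detected per cell, where detected means FPKM (fragments per kilobase of transcript, scaled to the depth of the cell) of 1 or more. Of the genes behind the sort, Ptprc, which encodes CD45, was detected in 69 cells, Csf1r in 65 and Emr1, which encodes F4/80, in 41. Markers of endothelial cells were found in 2 cells and those of alveolar epithelium in 1, meaning 3 or more markers at FPKM of 10 or more, and all 3 cells fell in the largest cluster described below. No pair of cells had identical values.

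Transcripts of some of these enzymes were abundant, with medians from 0.117 FPKM for Cat to 3241 for Gpx1, and most members were present in most cells. Of the 10 members, 9 were detected in 37 or more of the 73 cells, against 5.36% of all 23994 genes, and Cat was the exception. A cell held a median of 8 of the 10, with a range of 3 to 10, and 8 cells held all of them. Together they made up a median of 1.34% of a cell's mouse FPKM, from 0.121% to 3.14%. Gpx1 alone took a median of 51.5% of that share.

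Gpx1, the cytosolic and mitochondrial glutathione peroxidase, had the highest median of the members, at 3241 FPKM (lower quartile 1634, upper quartile 4612, highest 10654). It was detected in 72 of 73 cells (98.6%, exact Clopper-Pearson 95% interval 92.6 to 100, which here and below covers counting error only), and the remaining cell, number 15 on the chip, listed it at 0. Gpx1 was the highest of the 10 in 59 cells, Sod1 in 10 and Prdx1 in 4. Within cells Gpx1 exceeded Sod1, the next in order, in 62 of 73. Gpx4, the glutathione peroxidase that reduces lipid peroxides in membranes, stood far lower, with a median of 81.5 FPKM, a highest value of 1644 and detection in 55 cells (75.3%, 63.9 to 84.7).

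Of the dismutases, the cytosolic copper and zinc enzyme Sod1 had a median of 910 FPKM (quartiles 364 and 1897, highest 5848) and was detected in 69 cells (94.5%, 86.6 to 98.5). It was listed at 0 in the other 4. The mitochondrial manganese enzyme Sod2 had a median of only 5.86 FPKM (quartiles 0.255 and 44.5, highest 261) with detection in 51 cells (69.9%, 58 to 80.1). Sod1 exceeded Sod2 in 68 of the 73 cells, was level with it in 2 and lay below it in 3.

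Among the peroxiredoxins, which reduce peroxides with a reactive cysteine, Prdx1 of the cytosol led with a median of 478 FPKM (quartiles 273 and 995). Its highest value was 12582 in cell 6, more than any other member reached in any cell, and the next highest was 3687 in cell 55. Prdx1 was detected in 70 cells (95.9%, 88.5 to 99.1). Prdx5, which is found in mitochondria, peroxisomes and cytosol, had a median of 253 FPKM (quartiles 19.2 and 788, highest 2301) and was detected in 63 cells (86.3%, 76.2 to 93.2). Prdx6, which also acts as a phospholipase and supports surfactant turnover in the lung, was split between cells. It was listed at 0 in 29 cells, lay between 100 and 1000 FPKM in 18 and was detected in 38 (52.1%, 40.0 to 63.9), with a median of 3.33 and a highest value of 477 FPKM.

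Txn1, the cytosolic thioredoxin, had a median of 82.4 FPKM (quartiles 9.18 and 292, highest 2143) and was detected in 60 cells (82.2%, 71.5 to 90.2). Its reductase Txnrd1 had a median of 3.59 FPKM (quartiles 0.163 and 28.3, highest 297), with detection in 47 cells (64.4%, 52.3 to 75.3). Cat, the catalase of peroxisomes, was lowest, with a median of 0.117 FPKM, a highest value of 181 and detection in 28 cells (38.4%, 27.2 to 50.5). In cells that held it, the median of Cat was 11.6 FPKM.

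The order of neighbouring members by median was not equally clear within cells. Sod1 exceeded Prdx1 in 46 cells and lay below it in 27, Prdx1 exceeded Prdx5 in 54, and Prdx5 exceeded Txn1 in 47. Txn1 and Gpx4 could not be ordered, since Txn1 was higher in 34 cells and Gpx4 in 35. Gpx4 exceeded Sod2 in 46 cells and Sod2 exceeded Txnrd1 in 44. Prdx6 exceeded Txnrd1 in 37 cells although its median was lower, and Txnrd1 exceeded Prdx6 in 28. Prdx6 exceeded Cat in 38 cells and lay below it in 18.

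**Figure D1:**
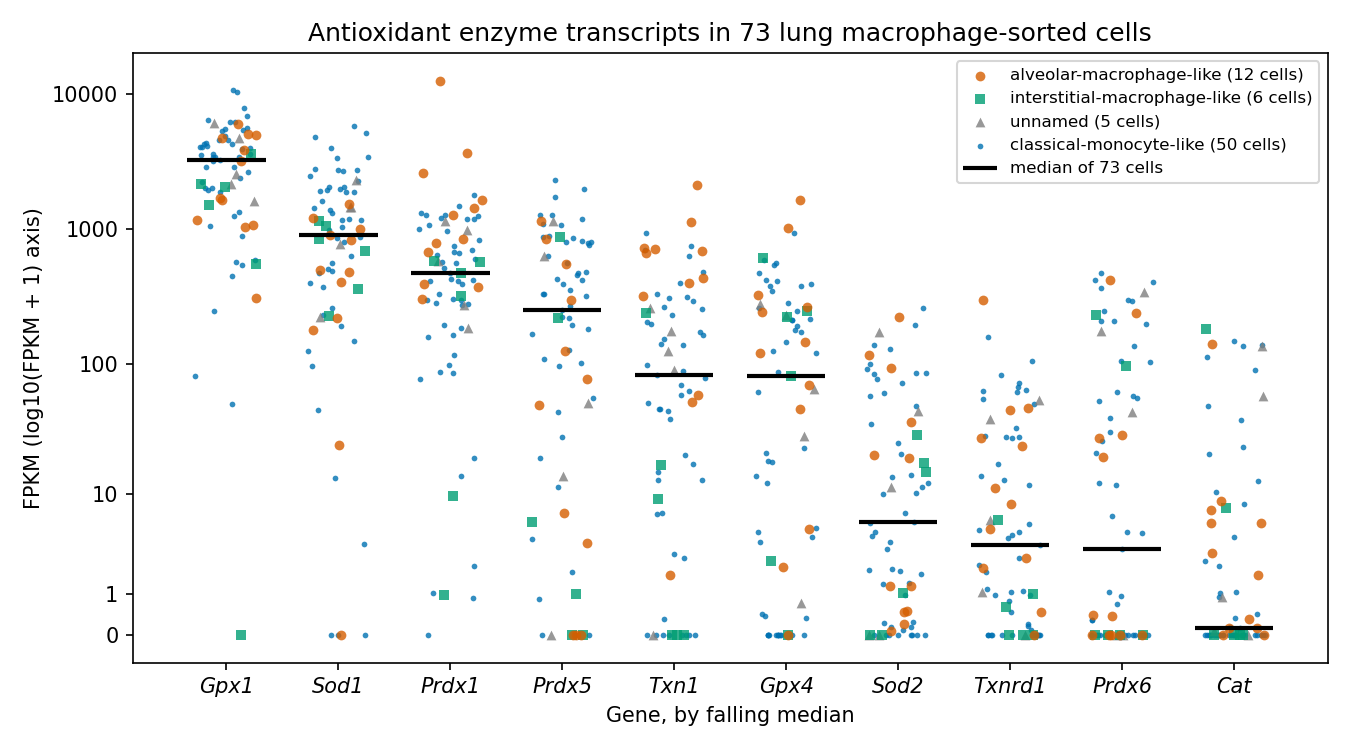
FPKM of each antioxidant enzyme in each of the 73 cells, on a log10(FPKM + 1) axis, with 1 point per cell, coloured by cluster, and a bar at the median. Gpx1 sits highest with a median of 3241 FPKM, and Cat lowest with 0.117; the single Prdx1 point at 12582 FPKM is cell 6.

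Depth moved with these levels. The mean log2(FPKM + 1) over the 10 members had a Spearman rho over the 73 cells of 0.53 with genes detected, 0.49 with mouse fragments and −0.56 with the spike-in share, given as a description of cells that share a mouse and a chip. When every cell was thinned to 458438 mouse fragments, Gpx1 was still detected in 72 cells, Sod1 in 69, Prdx6 in 40 and Cat in 28. For a member near 1 FPKM, the number of cells in which it is detected depends on the threshold. At any value above 0 the share of cells holding Cat was 52.1% and at FPKM of 10 or more it was 20.5%, and for Sod2 these shares were 83.6% and 47.9%. The scale of the levels depends on the total used in normalisation. When mouse FPKM was rescaled to the same total in every cell, the medians were 6715 for Gpx1, 2020 for Sod1 and 1245 for Prdx1. The chosen total was larger than the deposited mouse FPKM sum of every cell (168983 to 691698), so higher medians follow from that choice. These were still the highest 3 members.

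The cells were grouped by the 1000 most variable genes, with all 10 members and the other genes of the pathway lists left out of the grouping, and the groups were named from markers. A cluster of 12 cells was led by Ear2, Plet1, Atp6v0d2, Car4, Chil3 and Ear1 and is called alveolar-macrophage-like, after the phagocytes of the air spaces. A cluster of 6 cells was led by C1qb, C1qa, C1qc, Pf4 and Apoe and is called interstitial-macrophage-like, after the macrophages of the lung tissue. Another cluster of 5 cells, with H2-Aa, Stmn1 and Rrm2 among its leading genes, had 1 marker of a named type among them and stays unnamed. Its cells were not alike: of 14 genes of cell division (G2/M), cells 25, 30, 37 and 84 held 5, 9, 12 and 12, and cell 42 held 0. The largest cluster, 50 cells, was led by Ifitm3 and by the markers Plac8, Ly6c2, S100a4 and Ccr2, and is called classical-monocyte-like (below also monocyte-like) although the sort label reads macrophages. Levels are compared below with those 50 cells, as a difference in mean log2(FPKM + 1), and a difference of 1 or more in size is called higher or lower.

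**Figure D2:**
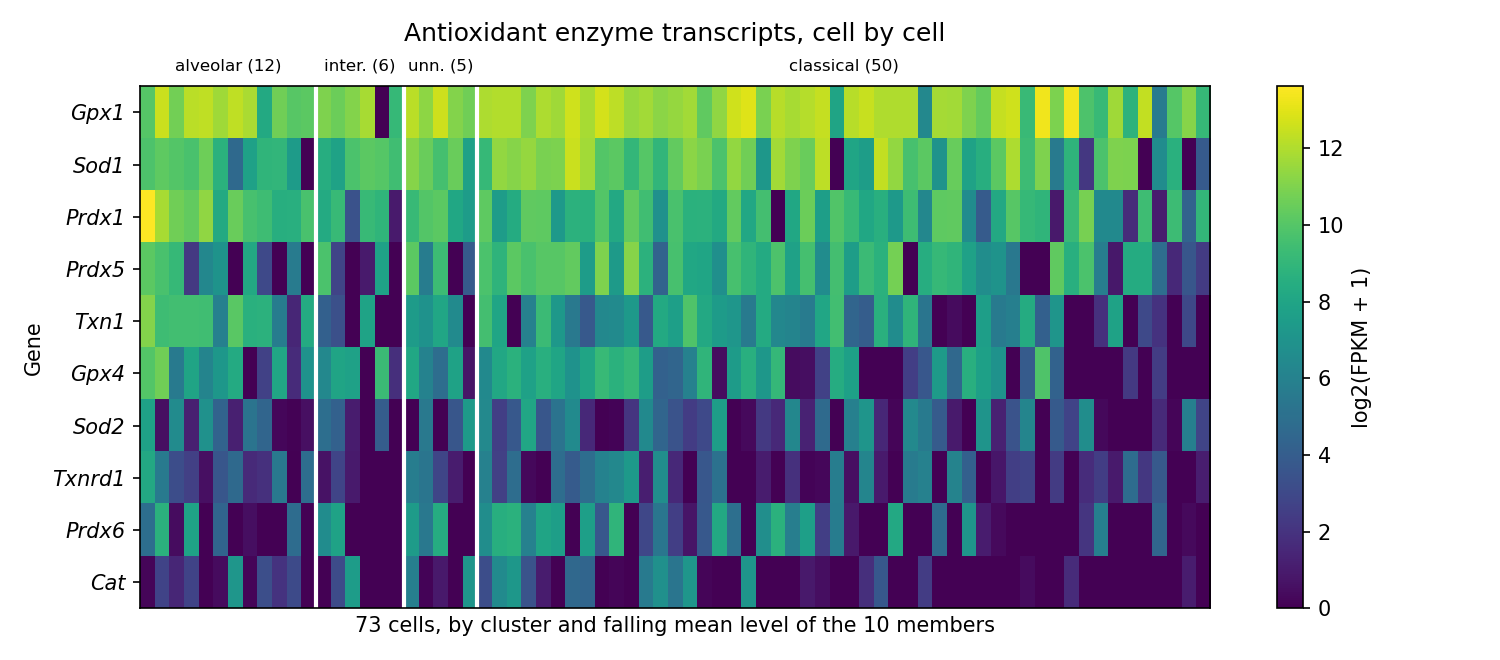
Level of each antioxidant enzyme, as log2(FPKM + 1), in each of the 73 cells, with 1 column per cell. White lines part the 12 alveolar-macrophage-like, 6 interstitial-macrophage-like (inter.), 5 unnamed (unn.) and 50 classical-monocyte-like cells, each ordered by falling mean level; the dark column in the Gpx1 row among the interstitial-macrophage-like cells is cell 15, listed at 0.

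In alveolar-macrophage-like cells, Prdx1, Txn1 and Gpx4 were higher and Prdx5 and Sod1 lower than in monocyte-like cells. Among the 6151 genes detected in at least 8 cells, 19.2% were higher and 9.12% lower by the same size, and all 10 members passed that filter. So 3 of 10 higher and 2 of 10 lower stand somewhat above shares that are themselves large. Among the 1285 genes detected in 37 or more cells, which are closer to the members in level, the shares were 24.7% and 20.3%, near those of the members. The median difference over the members was 0.27, against 0.13 over all 6151 genes.

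Prdx1 ran from 305 to 12582 FPKM across 12 alveolar-macrophage-like cells (median 1064), against 0 to 1797 with a median of 419 in the 50 monocyte-like cells. The ranges overlapped, yet 3 of the 12 cells lay above every monocyte-like cell and 20 of the 50 lay below all of the 12. The difference was 2.19 on the log2 scale (means 10.21 ± 1.55 and 8.02 ± 2.59, SD over 12 and 50 cells), and 1.88 without cell 6.

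Txn1, which passes electrons to Prdx1, ran from 1.76 to 2143 FPKM with a median of 553 in alveolar-macrophage-like cells, against 0 to 934 with a median of 66.3 in monocyte-like cells. It was detected in 12 of 12 and in 41 of 50 cells, and 46 of the 50 lay below the median of the 12. The difference was 2.82, and leaving out 1 cell at a time kept it between 2.56 and 3.43. Txnrd1 had a median of 9.75 FPKM in alveolar-macrophage-like cells and 3.15 in monocyte-like cells, a difference of 0.94 that did not reach 1. It reached 1 when any of 14 single cells was left out and was 0.51 without cell 6.

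Gpx4 ran from 0 to 1644 FPKM with a median of 134 in alveolar-macrophage-like cells and from 0 to 938 with a median of 42.5 in monocyte-like cells. It was detected in 11 of 12 and 35 of 50 cells, and its difference was 1.51. The ranges overlapped throughout the lower values, and 2 of the 12 cells lay above all of the 50.

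Prdx5 was lower, at 0 to 1161 FPKM with a median of 63.4 in alveolar-macrophage-like cells, against 0 to 2301 with a median of 343 in monocyte-like cells. It was detected in 9 of 12 and in 46 of 50 cells, the difference was −2.41, and only 1.77% of the 6151 genes had a lower one. Its exons overlap those of Trmt112, and how far reads from the overlap carry this difference was not tested. The same limit applies to Prdx5 in the comparisons below. Sod1 ran from 0 to 1551 FPKM with a median of 491 in alveolar-macrophage-like cells, against 0 to 5848 with a median of 1166 in monocyte-like cells. Of the 12 cells, 10 lay below the median of the 50. Its difference of −1.08 rested in part on cell 36, where Sod1 was listed at 0 and the spike-in share was the highest of all at 70.9%, and on cell 87, at 24.2 FPKM. It was −0.34 without cell 36 and −0.77 without cell 87.

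Gpx1 differed little, with medians of 2469 FPKM in alveolar-macrophage-like and 3491 in monocyte-like cells and a difference of −0.20. Sod2 (0.11), Cat (0.42) and Prdx6 (−0.69) also stayed within 1. Prdx6 passed −1 when cell 19 or cell 55 was left out, at −1.17 and −1.25. The clusters differed in depth as well, with medians of 1057391 mouse fragments and 2740 genes per alveolar-macrophage-like cell and 1392945 fragments and 2168 genes per monocyte-like cell. After thinning to one depth the difference was 2.17 to 2.23 for Prdx1, 2.76 to 2.92 for Txn1, −2.64 to −2.27 for Prdx5 and −1.14 to −1.01 for Sod1 over 20 draws.

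**Figure D3:**
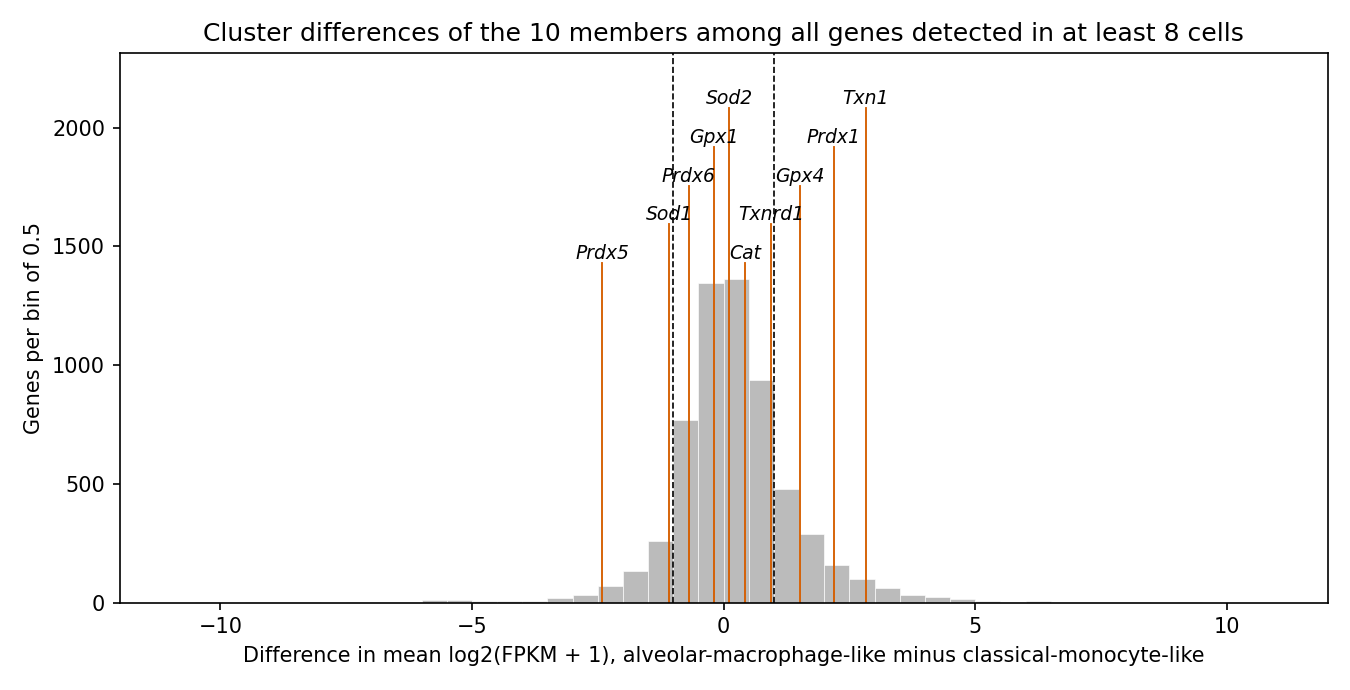
Difference in mean log2(FPKM + 1), alveolar-macrophage-like minus classical-monocyte-like, for the 6151 genes detected in at least 8 cells (grey bars, bins of 0.5), with a line for each antioxidant enzyme (line height carries no value) and dashed lines at −1 and 1. Txn1 at 2.82, Prdx1 at 2.19 and Gpx4 at 1.51 lie right of the upper line, Prdx5 at −2.41 and Sod1 at −1.08 left of the lower line.

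The order of members within a cell does not depend on how cells are scaled. The pairs below set a member called higher against one called lower, so they describe the same calls within cells and add no support to them. Prdx1 exceeded Sod1 in 10 of the 12 alveolar-macrophage-like cells, 1 of the 6 interstitial-macrophage-like cells, 1 of the 5 unnamed cells and 15 of the 50 monocyte-like cells. Txn1 exceeded Prdx5 in 9 of 12 alveolar-macrophage-like cells and in 11 of 50 monocyte-like cells. For the other 2 pairings the order was the same in most cells of both clusters. Prdx1 exceeded Prdx5 in 12 of the 12 and 33 of the 50 cells, and Txn1 exceeded Sod1 in only 4 of the 12 and 6 of the 50.

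In the 6 interstitial-macrophage-like cells 5 members were lower than in monocyte-like cells and 0 were higher. Of the 6151 genes, 16.2% were lower and 13.4% higher by that size, and the median over the members was −1.14 against −0.21 over all genes. The shares among the 1285 genes closer to the members in level were not worked out for this cluster or the unnamed one. Prdx5 differed by −3.97, with a median of 3.43 FPKM (0 to 873) in interstitial-macrophage-like cells and 343 in monocyte-like cells. Only 1 of the 6 cells lay above the median of the 50.

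Txn1 was detected in 3 of 6 interstitial-macrophage-like cells, at a median of 4.59 FPKM (0 to 238), against 41 of 50 and 66.3 in monocyte-like cells, a difference of −2.76. Txnrd1 was detected in 2 of 6 cells, at a median of 0.303 FPKM (0 to 6.03), against 3.15 in monocyte-like cells, a difference of −1.84. Both members of the thioredoxin couple were low in most of these cells. With k-means in place of Ward clustering the differences were −0.60 for Txn1 and −0.65 for Txnrd1, short of 1. Sod1 stood apart from them, detected in 6 of 6 cells at a median of 772 FPKM (228 to 1162), a difference of 0.15.

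The other lower calls rested on single cells. Gpx1 had a median of 1780 FPKM (0 to 3594) in interstitial-macrophage-like cells and 3491 in monocyte-like cells, and its difference of −2.35 was −0.56 without cell 15. That cell was not empty, with 1408858 mouse fragments, Sod1 at 1058 FPKM and Gpx4 at 614. Prdx1, at medians of 398 FPKM in interstitial-macrophage-like and 419 in monocyte-like cells, differed by −1.36, by −0.72 without cell 11 and by −0.23 without cell 94. Cell 94 had 762298 mouse fragments, a spike-in share of 57.4% and only 3 members detected, the fewest of any cell. The median was 1948 genes per interstitial-macrophage-like cell, against 2168 per monocyte-like cell. The other members, with Gpx4 at 0.78, Cat at 0.26, Sod2 at −0.79 and Prdx6 at −0.92, did not reach 1 in size. Of these, Gpx4 reached 1.89 without cell 32 and 1.53 without cell 94, and Prdx6 reached −2.01 without cell 50 and −1.76 without cell 65. Sod2 reached −1.12, −1.16 and −1.30 without cells 15, 50 and 65 in turn. So for 5 members leaving out 1 cell made or ended a call, and the calls of Prdx5, Txn1 and Txnrd1 held on each omission.

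Cells were also taken by C1q transcripts alone, as those with at least 2 of the 3 C1q genes detected. There were 10 such cells outside the alveolar-macrophage-like cluster and 0 within it, set against the 51 other cells outside that cluster. C1q genes also led the interstitial-macrophage-like cluster. The groupings share cells, among them cell 15, so the C1q rule adds no separate support to the calls of that cluster. Prdx5 had medians of 28.6 FPKM in the C1q cells and 353 in the others, a difference of −3.11. Gpx1 differed by −1.20, Txn1 by −1.15 and Txnrd1 by −1.22, while Prdx1 differed by only −0.28. Gpx1 was detected in 9 of the 10 C1q cells, and the remaining one was cell 15, at 0. The Gpx1 call of the interstitial-macrophage-like cluster rested on that same cell, and the C1q difference without it was not worked out. Gpx4 was higher in the C1q cells, at a median of 148 FPKM against 23.1 in the others and a difference of 1.29.

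In the 5 unnamed cells Cat was higher and Prdx5 lower than in monocyte-like cells, against 31% of the 6151 genes higher and 5.28% lower. Cat stood at 136, 57.5, 0.899, 0.0770 and 0 FPKM in the 5 unnamed cells, against a median of 0 in monocyte-like cells. The high values came from 2 cells, and the difference of 1.29 was 0.22 without cell 42 and 0.53 without cell 37. Prdx5 stood at 1160, 636, 51.3, 13.9 and 0 FPKM in the unnamed cells, and its difference of −1.71 was −0.25 without cell 84, the cell at 0. Members short of 1 also moved past it. Prdx1, at 0.97, and Prdx6, at 0.94, did so on leaving out any of 15 single cells each. Without cell 42, Gpx4 stood at 1.97, Txn1 at 1.92, Sod1 at 1.30 and Txnrd1 at 1.16, and Sod2 reached 1 without cell 30 or cell 37. These cells were also the deepest, with a median of 3219640 mouse fragments, and Cat stayed higher and Prdx5 lower by 1 or more after a single thinning to one depth. A range over draws was not worked out for this cluster.

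**Figure D4:**
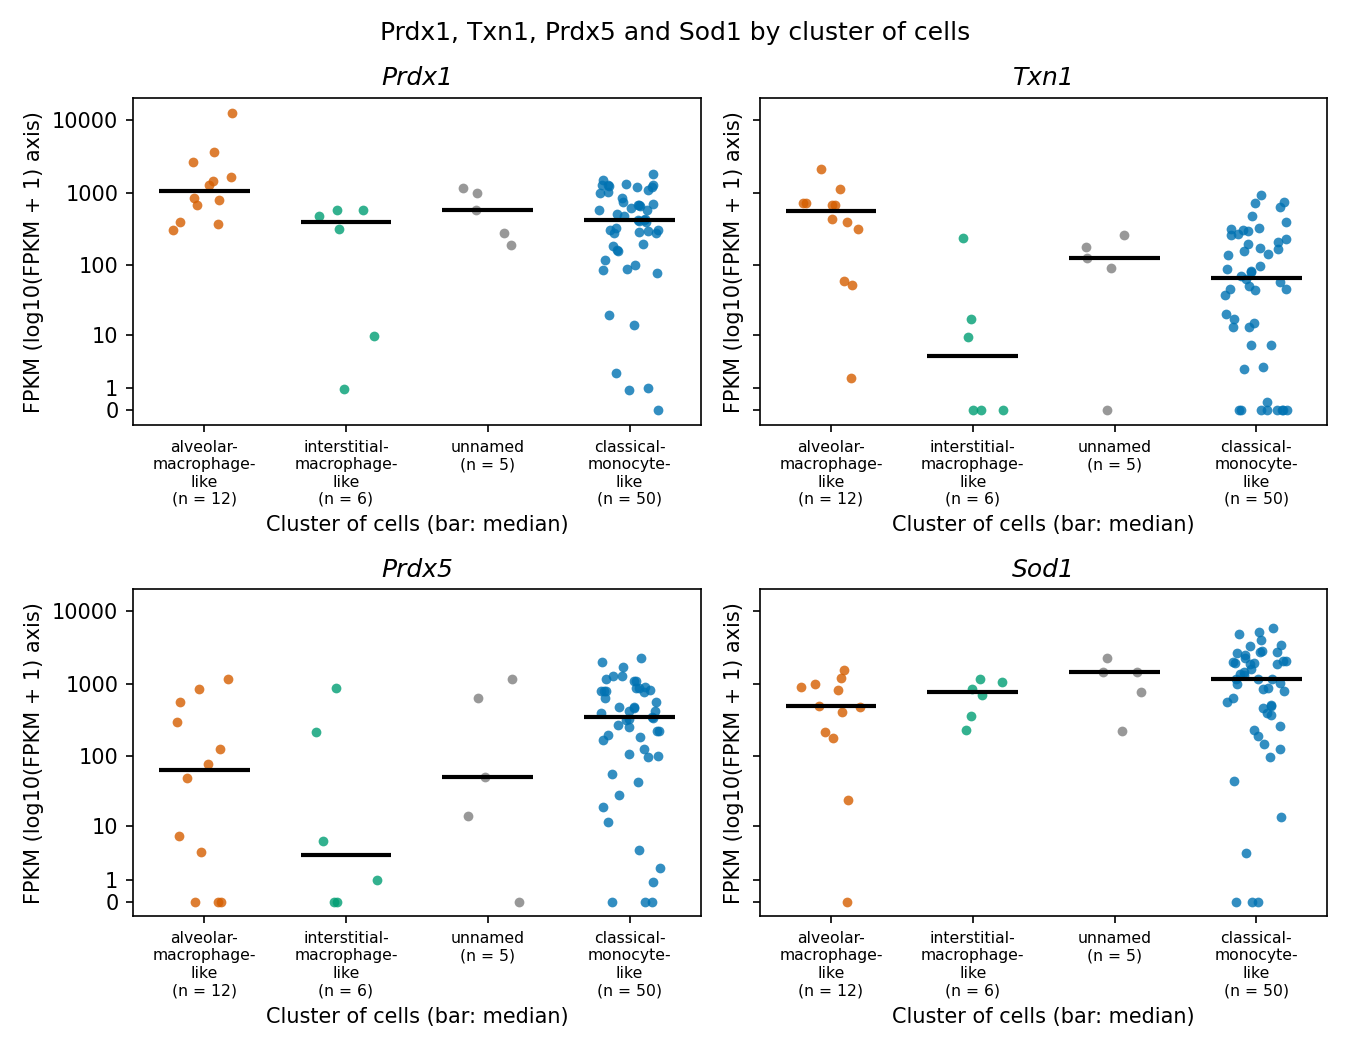
FPKM of Prdx1, Txn1, Prdx5 and Sod1 in each cell, by cluster, on a log10(FPKM + 1) axis, with 1 point per cell and a bar at the cluster's median. The Txn1 bars stand at 553 FPKM for alveolar-macrophage-like cells, 4.59 for interstitial-macrophage-like cells and 66.3 for classical-monocyte-like cells, and every cluster overlaps every other.

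Members varied together only weakly. Over the 73 cells the 45 pairs had a median Spearman rho of 0.16 (−0.16 to 0.42, 38 of them positive), against 0.06 over all pairs of the 1285 genes detected in 37 or more cells. Within the 50 monocyte-like cells the median was 0.11. These values share the depth of each cell and carry no test.

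Prdx5 and Prdx6 had the highest rho, 0.42, and all 38 cells that held Prdx6 also held Prdx5. Gpx1 and Sod1 followed at 0.41, and at 0.43 within the monocyte-like cells. Prdx1 and Txn1 had 0.38 over all cells and 0.07 within the monocyte-like cells. The weak relation of this enzyme to its electron donor was thus hardly seen within the largest cluster. Gpx4 and Prdx6 had 0.34, and Gpx1 and Sod2 had the lowest, −0.16.

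**Figure D5:**
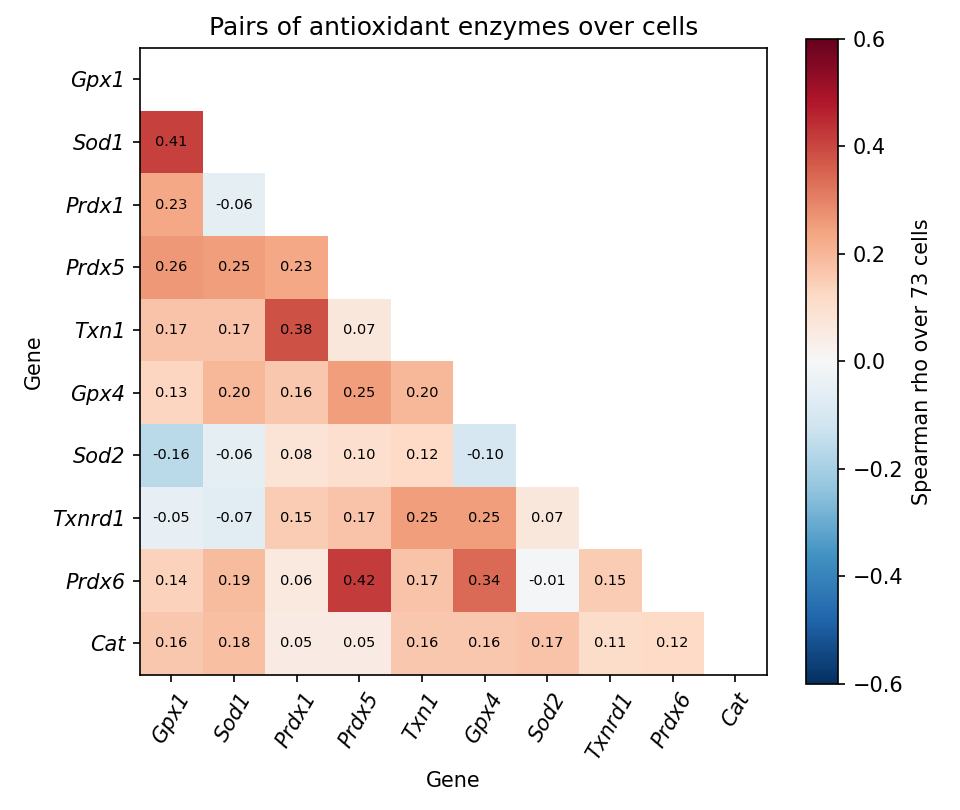
Spearman rho of log2(FPKM + 1) over the 73 cells for each of the 45 pairs of antioxidant enzymes, with members ordered by falling median. The darkest squares are Prdx5 with Prdx6 at 0.42 and Gpx1 with Sod1 at 0.41. The median over the 45 pairs is 0.16, and 38 of them are positive.

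Cell 6, of the alveolar-macrophage-like cluster, was singled out after its values were seen. It had the highest Prdx1, Txn1 and Txnrd1 of all 73 cells, at 12582, 2143 and 297 FPKM, and the second highest Gpx4 and Sod2, at 1015 and 222 FPKM. Its Gpx1 was low at 1037 FPKM, rank 62, and its Sod1 of 910 FPKM was the median. Of the other pathway genes, it was also highest in Slc7a11, the cystine importer for glutathione synthesis, at 341 FPKM, and in the NADPH oxidase subunit Cyba, at 4074. The cell was deep, with 3144757 mouse fragments, and ranked first for 179 of the 6151 genes (2.91%), and 2 other cells ranked first for more.

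The other genes of the pathway, 62 in 7 lists, were compared between the same clusters. Of the 44 detected in at least 8 cells, 10 were higher and 6 lower in alveolar-macrophage-like than in monocyte-like cells, near the shares of 19.2% and 9.12% over the 6151 genes. In interstitial-macrophage-like cells 6 of the 44 were higher and 17 lower, against 13.4% and 16.2% of the 6151 genes, and in unnamed cells 12 were higher and 10 lower, against 31% and 5.28%. With so few genes in each list, the counts by list below are descriptions, to be read against these shares. A list of 12 housekeeping genes, set beside them, had 3 higher and 2 lower in alveolar-macrophage-like cells, the same counts as the 10 members there. It had 1 higher and 3 lower in interstitial-macrophage-like cells, and 6 higher and 0 lower in unnamed cells. In alveolar-macrophage-like cells Hprt differed by 3.10, Gapdh by 2.38 and Gusb by 1.22, against −1.32 for Rplp0 and −1.11 for B2m.

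Of the 12 genes of glutathione synthesis, reduction and transfer, 8 passed the detection filter, and 4 were higher and 0 lower in alveolar-macrophage-like cells. The other clusters ran the other way on this list, with 0 higher and 5 lower in interstitial-macrophage-like cells and 1 higher and 4 lower in unnamed cells. The glutathione transferase Gstm1 differed by 3.07, with medians of 118 FPKM in alveolar-macrophage-like and 0.679 in monocyte-like cells. The microsomal transferase Mgst3 differed by 2.56 and the omega-class transferase Gsto1 by 1.93. Mgst1, another microsomal transferase, had the highest median of the list over all cells, 182 FPKM. Glutathione reductase Gsr, named after its values were seen, reached FPKM of 1 in 12 of the 12 alveolar-macrophage-like cells, in 0 of the 6 interstitial-macrophage-like cells and in 47 of the 50 monocyte-like cells.

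Both metallothioneins, small metal-binding proteins, were higher in alveolar-macrophage-like cells. Mt1 had medians of 1784 FPKM in alveolar-macrophage-like and 141 in monocyte-like cells, a difference of 4.79, and Mt2 differed by 3.37. This was not particular to them, since Mt1 also had medians of 1363 FPKM in interstitial-macrophage-like and 784 in unnamed cells, and 1 of the 2 metallothioneins was called higher in the interstitial-macrophage-like cells and 2 in the unnamed. Of the 7 NADPH oxidase subunits, which make the superoxide, 0 were higher and 3 lower in alveolar-macrophage-like cells, 0 were higher and 5 lower in interstitial-macrophage-like cells, and 1 was higher and 1 lower in unnamed cells. In the first of these Ncf4 differed by −4.23, with 2 of 12 alveolar-macrophage-like cells holding it against 33 of 50 monocyte-like cells, the small GTPase Rac2 by −3.24 and Ncf1 by −1.03. Cyba, the subunit with the highest median, 841 FPKM, was detected in all 73 cells.

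Of the 12 thioredoxin and glutaredoxin partners, 9 passed the filter. The methionine sulfoxide reductase Msrb1 was higher by 3.10, with medians of 230 FPKM in alveolar-macrophage-like and 42.5 in monocyte-like cells. Glrx5, the mitochondrial glutaredoxin of iron-sulfur cluster assembly, was higher by 1.08, and the cytosolic glutaredoxin Glrx differed by −1.21. Of the 14 genes of the NRF2 pathway 11 passed, with 1 higher and 1 lower in alveolar-macrophage-like cells. There were 2 higher and 4 lower in interstitial-macrophage-like cells, and 3 higher and 1 lower in unnamed cells. The autophagy receptor Sqstm1 differed by 3.90, with medians of 117 FPKM in alveolar-macrophage-like and 0.511 in monocyte-like cells, and G6pdx, which makes NADPH, by −1.50. Taldo1, of the pentose phosphate pathway, had the highest median of that list, 228 FPKM, and Nqo1 was listed at 0 in all cells.

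Of the 8 other peroxidases, peroxiredoxins and dismutases 4 passed. Gpx3, the secreted glutathione peroxidase, reached FPKM of 1 in 0 of 12 alveolar-macrophage-like cells, against 14 of 50 monocyte-like cells, a difference of −1.77. Prdx2 had the highest median of that list, 22.8 FPKM. Of the 7 genes of selenoprotein synthesis and supply 3 passed, 1 of them higher, Trnau1ap at 1.32. Sepp1, a secreted selenium carrier, had the highest median there, 56.7 FPKM.

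Outside the pathway lists, the genes whose pattern was most like the mean level of the 10 members, by Spearman rho over the 73 cells among 1152 candidates, were Gyg and Aprt at 0.51 and S100a11, Aldoa and Lyz2 at 0.50. Cd53 followed at 0.48, Ccdc12, Tpm3 and Cox7a2 at 0.45 and Lgals1 at 0.44. For single members the nearest genes were Aprt for Txn1 at 0.54, Actg1 for Gpx1 and Lyz2 for Prdx5 at 0.53, and Gp49a for Sod2 at 0.52. Aldoa was nearest to Prdx1 at 0.51, Klf13 to Sod1 at 0.50, Lamtor1 to Prdx6 at 0.48 and to Gpx4 at 0.36, and Psap to Txnrd1 at 0.39. All of these are moderate at most, and the mean level itself had a rho of 0.53 with the number of genes detected.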

How the data were processed

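The submitters' processing notes name CASAVA 1.8, TopHat2 2.1.0, Cufflinks 2.2.1, Cuffnorm and build mm10. Which gene models and cell filters were applied is not given in the sources used here. Values in FPKM (fragments per kilobase) were deposited by the authors already normalised. The other deposited table is a signal, namely fragment counts scaled by a factor for each cell. Dividing by each cell's smallest step gave fragments: of 99330 values between 0.5 and 20 steps, 99.6% lay within 0.1 of a whole number. The 100 spike-in rows were removed.

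Levels are FPKM; differences use log2(FPKM + 1), which understates those of low genes. Ward clustering used 10 principal components of 1000 variable genes, without the 84 genes of the function lists, and the cut from 2 to 6 with the highest silhouette and at least 5 cells per cluster; a name needed 3 or more markers of that type among the 10 leading genes, and names are rebuilt here, not the authors'. Doublets were not called, so capture sites that held more than 1 cell were not screened out here. Thinning drew fragments down to 458438 per cell 20 times. Cells are not replicates, so no test or count model was run, and Clopper-Pearson intervals cover counting error only. The calculation of cluster differences was checked on simulated data.

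The members, gene lists and tests were chosen with earlier results of these data known. Named were all 10 members, in each other list the gene with the highest median and up to 3 called genes per direction, the 10 genes most like the members' mean level and the 1 most like each member detected in 37 or more cells. Alternatives were other detection thresholds, a pseudocount of 0.1, rescaled FPKM, thinning, the count table, leaving out 3 cells with endothelial or epithelial markers, 2 clusters, k-means, 2000 variable genes and other gene filters. Added after seeing the data were the classical-monocyte-like cells alone, the C1q rule and leaving out each cell in turn. Promoters and coordinates come from RefSeq, GRCm38.p6, the assembly underlying mm10. Computation used Python 3.11.15, numpy 2.4.6, pandas 2.3.3, SciPy 1.17.1, scikit-learn 1.9.0 and matplotlib 3.10.9.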

Additional observations from a re-analysis of the deposited data

Results flagged for a closer look

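A spike-in RNA outside the gene comparisons took a median of 36.6% of the fragments per cell, from 14.2% to 70.9%, and the mean level of the antioxidant enzymes had a Spearman rho of −0.56 with that share over the 73 cells. With mouse FPKM rescaled to the same total in every cell, without the spike-in rows, the median of Gpx1 was 6715, against 3241 as deposited. The chosen total was larger than the deposited mouse FPKM sum of every cell (168983 to 691698, median 453663). Rescaling thus raised every value above 0, and the higher median does not measure an effect of the spike-in. After rescaling, the members called between alveolar-macrophage-like and classical-monocyte-like cells were the same 5.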

How the results depend on the processing

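The 12 alveolar-macrophage-like cells were the same 12 under a cut into 2 clusters, k-means and 2000 variable genes. The interstitial-macrophage-like and unnamed clusters were less stable, since with 2000 variable genes only 2 clusters resulted and neither appeared. Silhouettes for 2, 3 and 4 clusters were close, at 0.242, 0.25 and 0.251. The cut into 2 clusters and the 2000 variable genes gave the same division, though both are counted among the 8 alternatives below. In it the 12 cells were set against all 61 others, not only the classical-monocyte-like cells. With that limit, Prdx1, Txn1, Gpx4, Prdx5 and Sod1 kept their calls in all 8 alternatives. Sod1 ran from −1.19 to −1.02 and so stood near the threshold. Leaving out single cells moved Sod1 to −0.34. The 3 members higher became 5, with Cat and Txnrd1 added, under a pseudocount of 0.1 and in the count table, and 4, with Txnrd1 added, under 2 clusters, k-means and 2000 variable genes, so that Txnrd1 passed 1 in 5 of the 8. In interstitial-macrophage-like cells 0 members were higher, and 1, Gpx4, under a pseudocount of 0.1, with rescaled FPKM and by the C1q rule; the 5 lower became 2, Gpx1 and Prdx5, with k-means, which put 9 cells in that cluster, but 7, with Prdx6 and Sod2 added, under a pseudocount of 0.1 and in the count table, 6, with Prdx6 added, after rescaling and 4, without Prdx1, by the C1q rule. In unnamed cells the 1 higher became 3 under a pseudocount of 0.1 and with k-means, and 2 after thinning and in the count table. The cause of these shifts was not tested. Thinning is counted here by 1 draw, and over 20 draws the Txnrd1 difference of alveolar-macrophage-like cells ran from 0.79 to 1.16. The median difference over the 6151 genes also depended on the table, at 0.31 for alveolar-macrophage-like and 0.72 for unnamed cells in the count table, against 0.13 and 0.39 in FPKM. With no filter on low genes the shares of genes higher and lower in alveolar-macrophage-like cells were 5.53% and 2.34%. The median rho of the pairs lay between 0.11 and 0.16 in every alternative run on it. No paired analysis was possible because all cells form 1 group from 1 mouse. Levels near 1 FPKM, as for Cat, rest on few fragments.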
